A study of Mus musculus with 25 samples.

Results

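The 12 probes described here had higher pooled levels in the injured mouse lung than in the healthy lung. This held in peri-injured as in injured regions and in CD68 segments as in non-immune segments. Single segments of most of these probes overlapped the healthy ones in each compartment. The probes were chosen by a rule on the measured counts, so their rise over healthy regions is a description and carries no test. Counts were pooled by compartment and region class, and v is the log2 of the pooled CPM (counts scaled to a total of 1000000) plus 20. A probe entered if it had at least 60 counts in the CD68 segments, if v differed between CD68 and non-immune segments by at most 0.7 (mean over the 3 classes), and if v of peri-injured minus injured regions lay between -0.3 and 0.4 in both compartments. The probes were then ranked by m, the smallest of the 4 differences of v from healthy regions (peri-injured and injured, in both compartments), and up to 60 probes with m of at least 0.3 were to be kept. Only 12 of the 20175 probes met the rule. Of the 20175 probes, 1882 had the required counts, 1627 of them lay within the compartment limits, and 468 of those within the limits on peri-injured minus injured.

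Lungs of male mice carrying the SP-C I73T allele, a missense variant of surfactant protein C, were measured. Surfactant protein C is made by alveolar type 2 cells, and in this model tamoxifen activates a Flp-O recombinase from the Rosa26 locus, which removes a neomycin cassette from the Sftpc gene and raises the mutant protein. The healthy regions (1, 3 and 13) came from 1 control lung at day 0, labelled untreated in the sample records and oil treated in the series design. The peri-injured (6, 9, 10 and 12) and injured regions (4, 5, 7, 8 and 11) came from 1 lung on day 14 after tamoxifen. For it the labels give a single gavage of 175 mg/kg, whereas the study's methods describe 2 gavages, 3 days apart, each of a lower dose. All groups carry the mutant allele, so the control is the same line without induction. Regions were picked from the histology of a fixed section, and in each region probe barcodes were collected from the CD45+CD68+ cells (CD68 segment) and from the DNA-positive, CD45-negative area (non-immune segment), giving 3, 4 and 5 segments per compartment. Healthy and injured lung differ by mouse as well as by injury, and these cannot be told apart. P-values over regions measure the spread within a mouse, so for any statement on animals they would be too small.

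Alveolar injury recruits inflammatory monocytes that mature into macrophages, while epithelial cells, fibroblasts and endothelium respond with repair programmes and matrix deposition. CD68 is a lysosomal membrane protein of macrophages and other phagocytes. The CD45-negative area of a lung section holds mainly epithelium, endothelium and mesenchyme. A higher level can reflect more cells of a type or more RNA per cell, and these cannot be told apart in segments of many cells. The files list probes by barcode identifier and do not pair them with gene symbols. Neither the genes nor their functions can be given, the CD68 and non-immune labels were not checked against marker genes, and only the 2 members with the highest m are named by identifier.

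Depth differed with the groups. The CD68 segments held 35909 to 56172 counts in the healthy lung and 21955 to 119493 in the injured lung, and the non-immune segments held 80259 to 249104 and 201239 to 671249. The part of depth in the differences was not tested. The segment annotation among the study's supplements gives region 4 the tissue number of the control lung while naming its treatment as fibrosis, whereas its sample label places it in the injured group. It was kept as labelled, and results are also given without it.

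Together, the members took a larger share of the counts in all 9 regions of the injured lung than in any healthy region, in both compartments. In CD68 segments their summed level was 1696, 1513 and 1560 CPM in healthy regions 1, 3 and 13. It was 2875, 2733, 3497 and 3119 in peri-injured regions 6, 9, 10 and 12, and 2377, 3456, 2563, 2466 and 2888 in injured regions 4, 5, 7, 8 and 11. The group means were 1590 ± 95 (SD, n = 3), 3056 ± 334 (SD, n = 4) and 2750 ± 440 (SD, n = 5). The peri-injured and injured segments overlapped each other, and neither overlapped the healthy ones. Since the rule chose the members for higher pooled levels in these classes, nothing is read from this separation, in either compartment.

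In non-immune segments the summed level was 1734, 1546 and 1607 CPM in healthy regions 1, 3 and 13. It was 2455, 2243, 2750 and 2286 in peri-injured regions 6, 9, 10 and 12, and 2350, 2979, 2317, 2047 and 2749 in injured regions 4, 5, 7, 8 and 11. The means were 1629 ± 96.1 (SD, n = 3), 2433 ± 230 (SD, n = 4) and 2488 ± 372 (SD, n = 5). Region 8 was the lowest of the injured lung here and still lay above every healthy segment. Without region 4 the injured means were 2843 ± 447 in CD68 and 2523 ± 420 in non-immune segments (SD, n = 4).

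**Figure D1:**
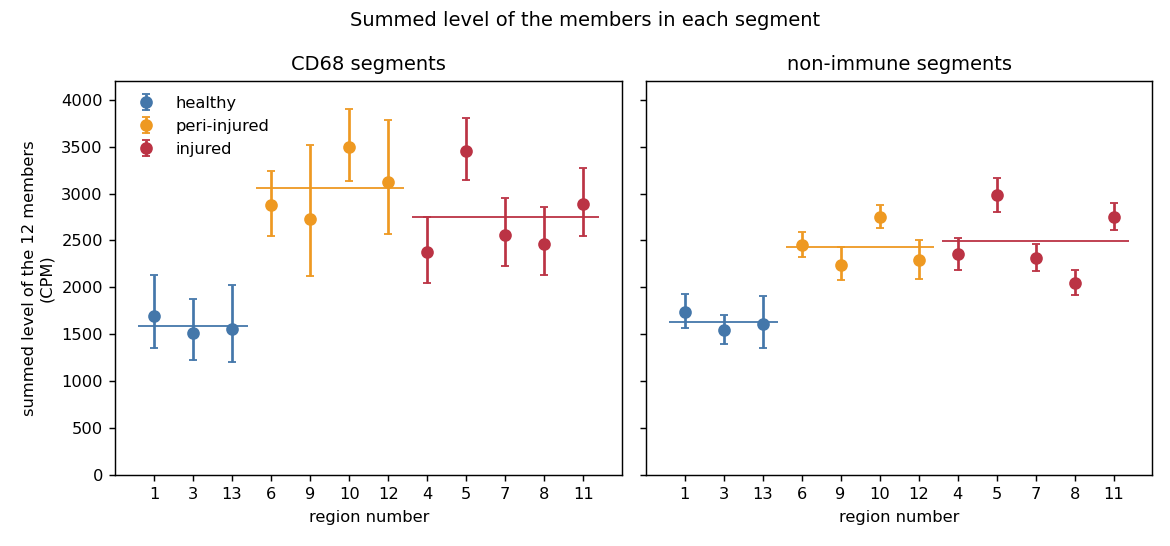
Summed level of the 12 members (y axis, CPM, from 0) in each segment by region number (x axis), for CD68 (left) and non-immune segments (right). Points are single segments with 95% Wilson intervals for counting error only, and lines are class means. Every point of the injured lung, from 2047 upwards, lies above the healthy points, which reach 1734. The rule chose the members for higher pooled levels in the injured lung.

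Some of the CD68 sums rested on few counts. Peri-injured region 9 had 60 member counts of 21955, which gave a 95% Wilson interval of 2124 to 3516 CPM, and healthy region 13 had 56 of 35909, with an interval of 1201 to 2024. In all, the members had 215 CD68 counts in the healthy lung against 1944 in the injured lung, and 868 against 9384 in non-immune segments. Of the members, 8 of 12 had under 10 CD68 counts in the 3 healthy segments together, whereas none (0 of 12) did in non-immune segments. These intervals cover counting error only.

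The rise was of moderate size for most members. The median member difference in v was 0.72 for peri-injured minus healthy and 0.68 for injured minus healthy in CD68 segments, and 0.51 and 0.48 in non-immune segments. Over the 1882 probes with enough CD68 counts the same medians were 0.21, -0.12, 0.14 and 0.00. On this scale these probes, which are a part of the panel, were thus also somewhat higher at their median in peri-injured than in healthy regions. The members ranged from 0.40 to 1.67 and from 0.38 to 1.54 in CD68 segments, and from 0.32 to 0.98 and from 0.32 to 0.89 in non-immune segments, where 0.3 was the limit that the rule set. All 12 members stayed above 0 in all 4 differences under each other scaling and added value tried and with each region left out, except that 11 of 12 did so in peri-injured minus healthy CD68 segments without region 10.

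**Figure D2:**
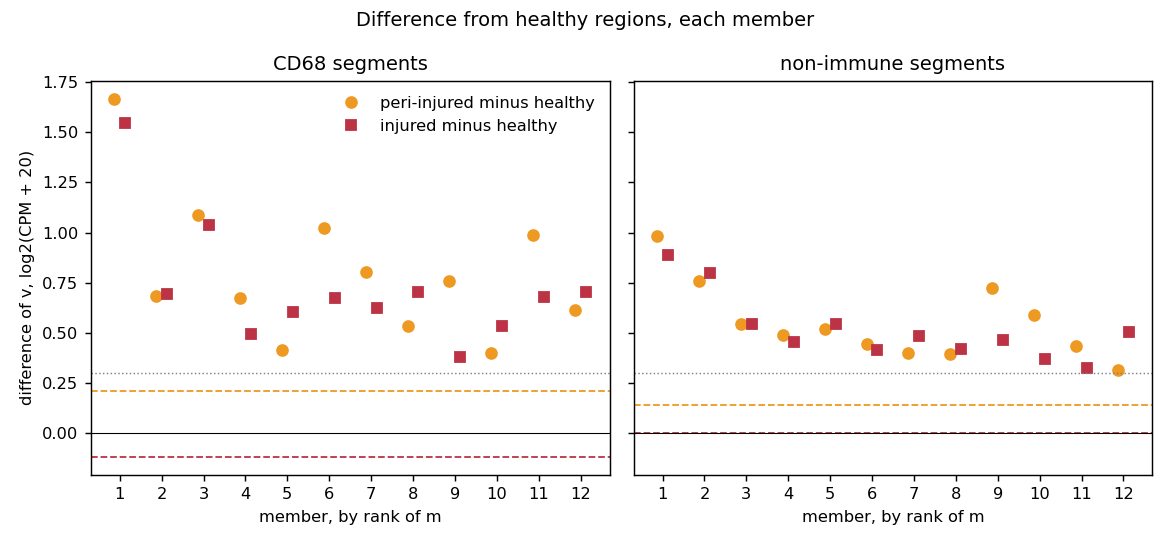
Difference of v, log2(CPM + 20), from healthy regions (y axis) for each member by rank of m (x axis), in CD68 (left) and non-immune segments (right), for peri-injured (circles) and injured regions (squares). Dashed lines are medians over the 1882 probes with 60 or more CD68 counts, 0.21 and -0.12 in CD68 and 0.14 and 0.00 in non-immune segments, and the dotted line at 0.3 is the limit of the rule, above which every point lies by construction.

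The limit on m divided probes of nearly the same value. The 3 lowest members had m of 0.368, 0.324 and 0.316, and the 3 probes just below the limit had 0.297, 0.293 and 0.289. Of the members, 6 had m under 0.4, while 8 further probes lay between 0.25 and 0.3. The highest m, 0.889 and 0.684, belonged to the 2 named members, followed by 0.546 for the third. Under the same limits, 4 probes were lower by at least 0.3 in all 4 differences. Without the limits on compartment and on peri-injured minus injured, 48 probes had m of at least 0.3 and 35 were lower by as much, and 25 of those 48 exceeded 0.4 in peri-injured minus injured CD68 segments.

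The leading member, RTS0062372, had the largest rise of the members in both compartments. In CD68 segments it was at 115, 71.2 and 223 CPM in healthy regions 1, 3 and 13. It was at 492, 501, 402 and 363 in peri-injured regions 6, 9, 10 and 12, and at 270, 561, 337, 209 and 523 in injured regions 4, 5, 7, 8 and 11. All 4 peri-injured segments lay above the healthy ones, and 8 of the 9 segments of the injured lung did, since injured region 8 (15 counts) fell below healthy region 13 (8 counts).

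In non-immune segments RTS0062372 was at 137, 108 and 62.3 CPM in healthy regions 1, 3 and 13. It was at 215, 250, 270 and 209 in peri-injured regions 6, 9, 10 and 12, and at 198, 314, 174, 193 and 255 in injured regions 4, 5, 7, 8 and 11. All 9 segments of the injured lung were above all 3 healthy segments. The pooled level of the injured lung was 3.33 times that of the healthy lung in CD68 segments, with an exact 95% interval for counting error of 2.04 to 5.80 on 17 and 276 counts. It was 2.07 times in non-immune segments, with an interval of 1.59 to 2.73 on 60 and 875 counts. Among all probes, RTS0062372 moved from the 96.7th percentile of pooled level in healthy CD68 segments to the 99.3rd in peri-injured and the 99.6th in injured ones.

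The next member, RTS0063700, was separated from healthy regions more cleanly in the non-immune segments than in CD68 segments. In non-immune segments it was at 333, 285 and 212 CPM in healthy regions 1, 3 and 13. It was at 518, 471, 505 and 547 in peri-injured regions 6, 9, 10 and 12, and at 520, 534, 563, 468 and 538 in injured regions 4, 5, 7, 8 and 11. The 9 values of the injured lung thus lay within a narrow range, from 468 to 563, above the highest healthy value of 333, and the class means were 277 ± 61.1 (SD, n = 3), 510 ± 31.2 (SD, n = 4) and 525 ± 35 (SD, n = 5).

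In CD68 segments RTS0063700 was at 413, 178 and 278 CPM in healthy regions 1, 3 and 13. It was at 385, 501, 525 and 485 in peri-injured regions 6, 9, 10 and 12, and at 270, 594, 391, 488 and 499 in injured regions 4, 5, 7, 8 and 11. Of the 9 segments of the injured lung, 6 were above all healthy segments, while regions 4, 6 and 7 were below healthy region 1. The pooled level in the injured lung was 1.66 times that in the healthy lung (exact 95% interval 1.18 to 2.39) in CD68 segments and 1.77 times (1.50 to 2.09) in non-immune segments.

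**Figure D3:**
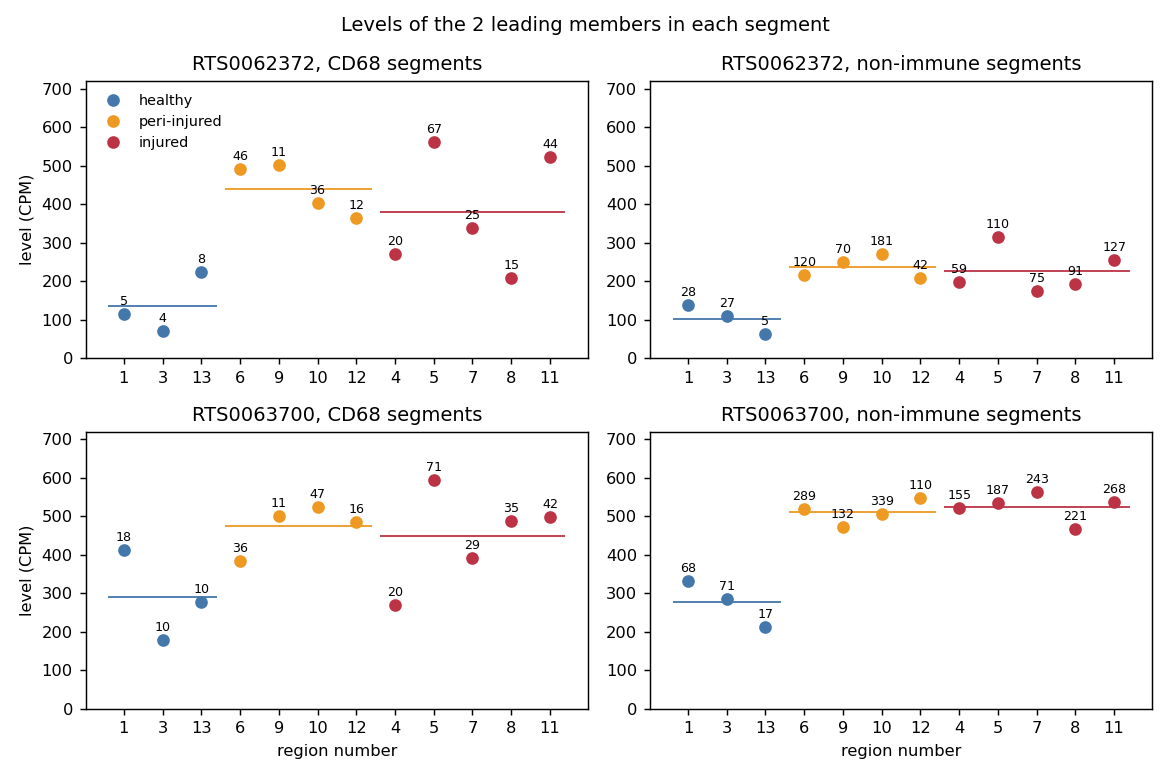
Level (y axis, CPM, from 0) of RTS0062372 (top) and RTS0063700 (bottom) in each CD68 (left) and non-immune segment (right), by region number (x axis). Each point carries its raw count and lines are class means; in non-immune segments all 9 points of the injured lung lie above the healthy points for both probes, and in CD68 segments 8 and 6 of 9 do.

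The other 10 members covered a wide range of abundance. The member of rank 6 was the most abundant, with 688 CD68 counts. In CD68 segments it was at 344, 587 and 641 CPM in healthy regions 1, 3 and 13, and between 683 and 1363 in the peri-injured and between 697 and 1063 in the injured regions. All 9 segments of the injured lung were above the healthy ones there, whereas in non-immune segments 6 of 9 were, with 526 to 685 in healthy regions and 578 to 1071 in the injured lung. Its pooled level was 1.78 times (exact 95% interval 1.39 to 2.31) and 1.36 times (1.21 to 1.53) that of the healthy lung in the 2 compartments.

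The member of rank 3 was low in the healthy lung, at the 48.6th percentile of pooled level in CD68 and the 26.5th in non-immune segments. In non-immune segments of the injured lung it was at the 75.3rd percentile in peri-injured and the 71.0th in injured regions. Levels were not compared with negative-probe background or a limit of quantitation, for this or any other member. Its pooled level was 36.8 CPM in healthy CD68 segments, on 5 counts, against 101 in peri-injured and 96.8 in injured ones, and 28.1 against 50.3 and 50.2 in non-immune segments. All 9 CD68 segments of the injured lung, from 67.5 to 139 CPM, were above the healthy segments, which reached 55.7 on 2 counts in region 13. Only 5 of the 9 non-immune segments were above the healthy ones. The pooled CD68 ratio of 2.67 had an exact 95% interval of 1.09 to 8.49.

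The remaining 8 members, of ranks 4, 5 and 7 to 12, had pooled CD68 ratios of injured to healthy lung between 1.50 and 1.96. For these 8 the exact counting interval of the CD68 ratio held 1, while for the other 4 members it lay above 1. In non-immune segments, where the members had more counts, the interval lay above 1 for 11 of 12 members and held 1 for the member of rank 11, with 0.99 to 1.97. The members were chosen for high values, and the intervals describe counting error around them. The share of all probes with an interval above 1 was not computed. Since the rule chose on the same contrasts, nothing is read from these numbers of members.

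Members differed in how the 2 classes of the injured lung compared, within the limits that the rule set. In CD68 segments v of peri-injured minus injured regions ran from -0.19 for the member of rank 5 to 0.38 for that of rank 9. In non-immune segments it ran from -0.19 for the member of rank 12 to 0.26 for that of rank 9. The difference between compartments ran from -0.12 for RTS0063700 to 0.59 for the member of rank 3, so the members that leaned to one side leaned to CD68 segments: RTS0062372 (0.58) and the members of ranks 3 (0.59) and 5 (0.57).

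Single segments separated the classes for some members only. In CD68 segments 3 of 12 members had all 4 peri-injured segments above the healthy ones, against 13.8% of the 1882 probes, 2 had all 5 injured segments above them, against 3.19%, and 2 had all 9, against 1.28%. In non-immune segments these counts were 7 of 12 against 18.9%, 6 of 12 against 5.84% and 5 of 12 against 2.39%. The rule used these contrasts, so nothing is read from the counts being above those shares. The members with all 9 segments above were those of ranks 3 and 6 in CD68 segments, and RTS0062372, RTS0063700 and those of ranks 4, 7 and 8 in non-immune segments, with no member in both lists. Without region 4 the counts for the 8 other regions were again 2 and 5, against 1.49% and 3.08% of the probes.

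Few members passed a test over all probes, and a member that was not called is not read as unchanged. With edgeR's quasi-likelihood test on the 6000 probes with the highest mean share in a compartment, with calls at an adjusted p (Benjamini-Hochberg) below 0.05, 1 of 12 members was called higher in peri-injured than in healthy CD68 segments, against 1.23% of the probes tested. Again 1 of 12 was called higher in injured than in healthy CD68 segments, against 0.283%, and it was RTS0062372 in both. In non-immune segments 2 of the 11 members tested were called in peri-injured regions, against 2.68%, and 2 of 11 in injured regions, against 0.767%, and these were RTS0062372 and RTS0063700. The member of rank 3 was not among the probes tested in non-immune segments. The fitted log2 fold changes of RTS0062372 were 1.78 and 1.90 in CD68 and 1.06 and 1.21 in non-immune segments, for peri-injured and injured regions. Its pooled differences of v had the reverse order, 1.67 and 1.54 in CD68 and 0.98 and 0.89 in non-immune segments. In the fits the median log2 fold change over all probes tested was 0.04 and 0.21 in CD68 and -0.003 and 0.15 in non-immune segments.

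Since the rule chose on these contrasts, the calls are a description. They changed with the region left out, with 0 to 1 members called in each CD68 contrast. In non-immune segments 0 to 2 were called in the peri-injured and 0 to 3 in the injured contrast. Over all probes tested the share called also varied in these fits. It ran from 0.383% to 1.77% in peri-injured and from 0.1% to 0.317% in injured CD68 segments. In non-immune segments it ran from 1.1% to 3.17% and from 0.283% to 1.35%. Without region 4 the 4 counts were again 1, 1, 2 and 2, against 1.2%, 0.283%, 2.83% and 0.55% of the probes tested. With limma in place of edgeR, 7 members were called in injured non-immune segments, where it called 3.48% of all probes tested. Between compartments no member was called (0 of 12, with 2 at an unadjusted p under 0.05, as had 25.4% of the probes), against 12.5% of the probes called in either direction, and the rule had limited this difference.

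The rise shrank in regions that took no part in the choice. The rule was applied again without 1 healthy region and 1 region of the injured lung, for each of the 27 such pairs, and the chosen probes were then measured in the pair left out. It chose 7 to 25 probes (median 15), of which 3 to 10 (median 7) were among the 12 members. In CD68 segments the median difference of the chosen probes was 0.64 in the regions that chose them and 0.25 in the pair left out, with a range of -0.13 to 0.90. In non-immune segments it was 0.49 and 0.28, with a range of -0.16 to 0.66.

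The differences left after this shrinkage were above those of other probes in most pairs. All probes with enough CD68 counts had a median of 0.00 (range -0.32 to 0.39) in CD68 and of 0.10 (range -0.18 to 0.27) in non-immune segments of the same pairs. The chosen probes exceeded them in 23 of 27 pairs in CD68 segments, by a median of 0.31, and in 22 of 27 pairs in non-immune segments, by a median of 0.24. Pairs share regions and all come from the same 2 mice, so they are not independent and no test was made. Over the pairs without region 4 the medians of the chosen probes were 0.30 and 0.29.

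**Figure D4:**
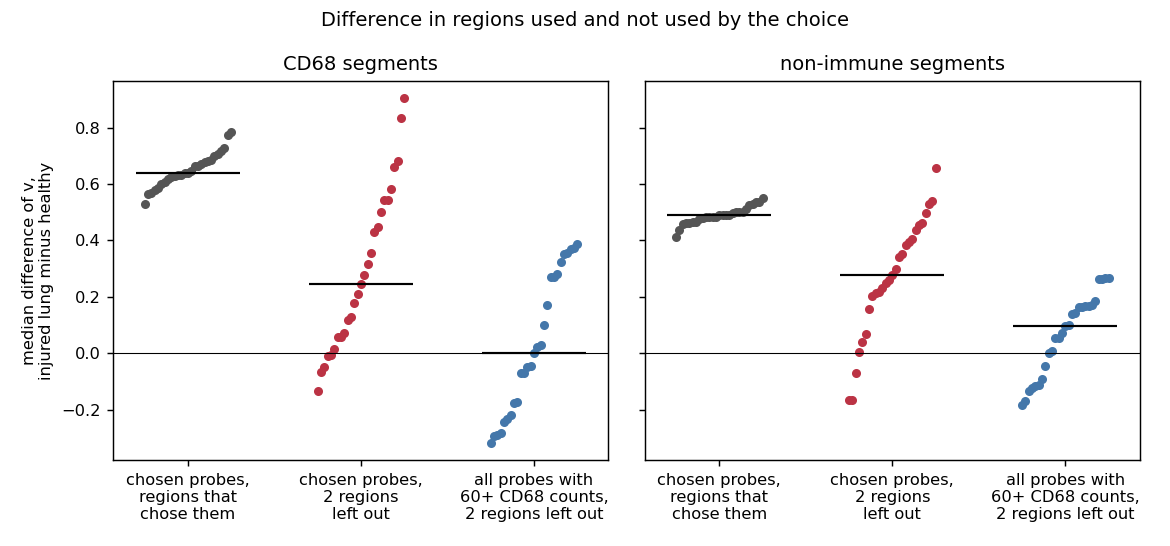
Median difference of v, injured lung minus healthy (y axis), over probes chosen without 1 healthy and 1 injured-lung region, in the regions that chose them (grey), in the pair left out (red), and over all probes with 60 or more CD68 counts in that pair (blue), for CD68 (left) and non-immune segments (right). Points are the 27 pairs in order of value and black lines their medians. These fell from 0.64 to 0.25 in CD68 and from 0.49 to 0.28 in non-immune segments. The medians of all probes with 60 or more CD68 counts were 0.00 and 0.10.

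Both named members were found again in most of these choices. RTS0062372 was chosen in 23 of 27 pairs and RTS0063700 in 25 of 27. Over all 27 pairs, RTS0062372 was higher in the injured-lung region than in the healthy region in 26 CD68 comparisons (median difference of v 1.51) and in 27 non-immune ones (median 1.07). RTS0063700 was higher in 23 (median 0.76) and in 27 (median 0.83). These values include pairs in which the probe was not chosen. The full set of regions had chosen both probes, so the values restate that contrast and are not held-out support.

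The summed level of the members tended to move together in the 2 segments of a region within the injured lung, a relation looked at after the values were seen. Regions 10 and 5 had the highest sums in CD68 segments (3497 and 3456 CPM) and also had the 2 highest in non-immune segments (2750 and 2979). Over the 9 regions Pearson's r was 0.76 and Spearman's rho 0.65. An exact permutation test over all pairings gave p of 0.019 for r and 0.067 for rho. Adjusted (Benjamini-Hochberg) over the 3 relations looked at, these were 0.056 and 0.20. Without both of regions 10 and 5, the farthest from the median of the CD68 sums, r was 0.40, so its size rested on that pair. With any single region left out r ran from 0.65 (without region 5) to 0.85 (without region 12), and it was 0.88 after the class means were removed. The 9 regions share a mouse and a section, and each pair of segments shares a place. For sums without the largest member of each segment r was 0.76, and for the mean of v over members it was 0.48. The mean of v over all probes with 60 or more CD68 counts also moved together. It was highest in regions 6 and 10 (7.36 and 7.34 in CD68, 7.16 and 7.15 in non-immune segments). It was lowest in regions 4 and 8 (6.78 and 6.77 in CD68, 6.78 and 6.78 in non-immune segments). Shared movement of the 2 segments was thus not particular to the members. Against the log10 of the total count, r of the summed level was 0.23 in CD68 segments (exact permutation p 0.58). It was 0.84 without regions 9 and 12, the farthest from the median total. In the other 7 regions the CD68 sum thus moved with depth, a relation that was not tested. In non-immune segments r was 0.32, and 0.045 without regions 12 and 10. The part of depth in the relation between compartments was not tested.

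**Figure D5:**
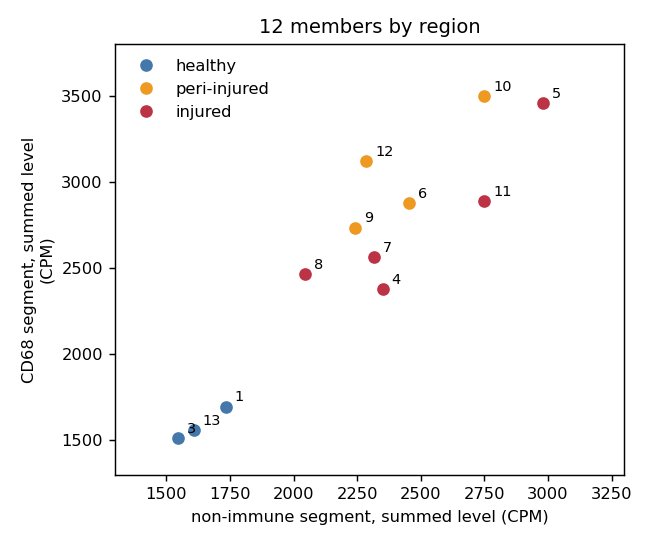
Summed level of the 12 members in the CD68 segment (y axis, CPM) against the non-immune segment (x axis, CPM) of each of the 12 regions, with region numbers and colours for the classes; both axes start above 0. The 3 healthy regions lie at the lower left, and within the injured lung regions 10 and 5 have the highest CD68 sums (r 0.76 over 9 regions, 0.40 without both).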

How the data were processed

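GeoMx spatial RNA data of 24 tissue segments from 12 regions of 2 mouse lungs were used, and the reaction without tissue was not. The authors deposited raw, whole-number counts for each probe of the mouse whole transcriptome panel, made from the reads by alignment to probe barcodes and removal of duplicates by molecular identifier (GeoMx NGS Pipeline 2.3.4 per the file headers). They are not normalized, probes that a file does not list were read as 0, and the labels name the build mm10. Totals ranged from 21955 to 671249 counts per segment, which sets the counting error. The authors went on to normalize to Q3 and fit a mixed model, values of which were not used here.

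Groups came from the sample labels. CPM values were computed on all probes. Members were chosen by the rule given in the report, and members, rule and comparisons were chosen with earlier results of these data known. The 2 members with the highest m are named, and the others are described by rank, because the sources used here do not pair probes with gene symbols, so that marker lists were not applied. The quasi-likelihood test of edgeR 4.0.16 (R 4.3.3) was fitted per compartment to its 12 segments, with the 3 region classes as terms, on the 6000 probes with the highest mean share, scaled to the 75th percentile, with Benjamini-Hochberg adjustment over all of them. The compartments were compared in a fit of all 24 segments. TMM and DESeq2 1.42.0 size factors, the DESeq2 Wald test, limma 3.58.1, other filters and each region left out were tried as alternatives. Fits were run on simulated data, where most 2-fold changes were missed in both compartments. Ratios of pooled levels have exact binomial intervals at 95%, and Python 3.11.15 with matplotlib 3.10.9 made the plots.

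The CD68 and non-immune segment of a region share its number and come from the same place. Over the 6000 probes, their deviations from class means correlated by 0.00360 to 0.145 (median 0.0625), and 3 of 12 pairs exceeded 0.1.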

Additional observations from a re-analysis of the deposited data

Results flagged for a closer look

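Among 56 groups of 4 or 5 segments (each member, their sum and the total count), 4 held a value far from the others, where chance alone puts about 1 in 20 groups past the limit. The total of CD68 injured region 5 was 119493 counts, against 71786 to 84152 in the other injured regions, and this region also had the highest member sum of the injured CD68 segments. The member of rank 4 was at 154 CPM in non-immune injured region 4, against 92.6 to 108 in the other 4. The member of rank 7 was at 0 in CD68 peri-injured region 9, which had 21955 counts in all, against 121 to 139 in the other 3 regions. The member of rank 12 was at 35.6 CPM in CD68 injured region 11, against 111 to 135 in the other 4.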

How the results depend on the processing

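The rule was sensitive to its scaling. Of the 12 members, 7 were found again with equal weight for each region (among 17 chosen), 7 with scaling to Q3, the 75th percentile (among 25), 7 with TMM (among 18) and 4 with at least 120 CD68 counts (among 4). With an added value of 5 or 50, 10 of 18 and 8 of 9 chosen probes were members, and with at least 30 CD68 counts 10 of 60, the limit of the rule. Leaving out 1 region kept 8 to 12 members among 10 to 21 chosen, with the most chosen without healthy region 1 (21) or 13 (20), and RTS0062372 and RTS0063700 were kept in every one of these settings. The median member difference of injured from healthy CD68 segments was 0.54 with an added value of 50 and 0.93 scaled to Q3. With Q3 the median of the 1882 probes with enough CD68 counts moved from -0.12 to 0.13. The median member difference of peri-injured from healthy non-immune segments was 0.40 with an added value of 50, 0.39 scaled to Q3 and 0.65 with TMM. With 1 region left out, the medians ran from 0.65 to 0.87 and from 0.59 to 0.89 in CD68 and from 0.40 to 0.56 and from 0.41 to 0.52 in non-immune segments (peri-injured, then injured).

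With filterByExpr of edgeR, 2 members were called in injured CD68 segments (3.69% of the 1004 probes tested), 1 in peri-injured (1.12% of 17037) and 0 in injured non-immune segments (0.112%). Without a filter, 0 were called in injured non-immune segments (0.0991% of 20175), and limma called 7 there (3.48% of 6000). Over all probes the share called also varied with the region left out, as given with the calls above. Calls of members ran from 0 to 1 in both CD68 contrasts with 1 region left out, from 0 to 2 in peri-injured and from 0 to 3 in injured non-immune segments. The count fell to 0 without region 1, 3 or 6 in peri-injured CD68, without 1, 3 or 5 in injured CD68, without 1, 9, 10 or 13 in peri-injured non-immune and without 13 in injured non-immune segments, and it rose to 3 in the last without region 5. The causes were not tested. Between compartments, 0 members were called with each region left out, and 0 also with the region as a replicate block, which gave 773 calls over all probes against 749 without it. Whether the numbers pair the segments rests on their shared place. Depth limits the CD68 values most, since 8 of 12 members had under 10 healthy counts.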
